A study of Mus musculus with 6 samples.

Results

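Ribosomal protein pseudogene features were taken from RNA immunoprecipitation (RIP) libraries of mouse muscle stem cells as the rows of the deposited read-count table whose symbol is that of a ribosomal protein gene followed by -ps and any digits, with at least 10 counts summed over the 6 libraries. The symbol pattern matched 305 of 55376 rows, and 216 of them reached that total. Each feature was set beside its parent, here the gene whose symbol remains when -ps and the digits are removed, and the 216 features fell to 59 parents. They were thus chosen by 1 measured value, the total count over all libraries, which the libraries with most reads weigh most. The 3 features with the lowest totals inside the limit, Rpl21-ps4, Rpl29-ps2 and Rpl31-ps4, had 10 counts each. The 3 just outside it were Rpl15-ps4 and Rpl31-ps6 with 9 counts each and Rps19-ps1 with 8.

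The RNA came from muscle stem cells of C57BL/6 mice aged 3 months, sorted by fluorescence and sequenced from SMART-seq2 libraries, a full-length cDNA method for little RNA. The groups were 2 libraries of RNA precipitated with an antibody against CPEB4, 2 of RNA precipitated with IgG, and 2 of input RNA, with no allele, treatment or time that differs between them in the labels. CPEB4 is a cytoplasmic polyadenylation element-binding protein that regulates the translation of messages. IgG RIP gives the RNA carried through the precipitation without that antibody, and input the RNA before it. Animals and preparations are not named in the design text. The p-values thus reflect how far these libraries differ, which may be technical in part. In such libraries fewer cells of a type and less RNA per cell cannot be told apart.

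Ribosomal protein pseudogenes are mostly processed copies: a spliced message was reverse transcribed and inserted elsewhere in the genome without introns and usually without the promoter of its source. Ribosomal protein genes, whose short messages are abundant in most cells, are among the families with the most such copies in mammals. A read from a processed copy can match the message of the parent equally well, and a read of the message can match the copy. The sources used here do not say how reads with several matches were counted or whether counting used the strand, and the counts of each feature below are uncertain to that extent.

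The start of Rpl31-ps12 and that of its parent Rpl31, which codes for a protein of the large ribosomal subunit, are printed as an example. Rpl31 is the parent with the most features here. The sequences are from RefSeq on GRCm38.p6, read 5′ to 3′ on each gene's own strand. Capitals mark the bases that are identical in the stretch the 2 genes share, and lower case marks the bases before it and the base that differs.
Rpl31-ps12 (chr16:16820158-16820207, minus strand): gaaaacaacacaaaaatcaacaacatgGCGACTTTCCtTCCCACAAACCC
Rpl31 (chr1:39367851-39367900, plus strand): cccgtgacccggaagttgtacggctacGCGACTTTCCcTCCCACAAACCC
The shared stretch covered 23 bases of these windows, of which 22 were identical. It was sought as the longest match without gaps that ends at the last base of the Rpl31 window, with at most 1 difference. Its end and its number of differences were thus set by the search. The difference was C11T, with the parent's base first and positions counted from 1 at the 5′ end of the stretch. In the 27 bases before the stretch, where the search stopped at a further difference, 8 were identical. The stretch began at base 28 of the annotated Rpl31 and at base 17 of the annotated Rpl31-ps12. RefSeq's table of start windows held 1 of the 216 features and 44 of the 59 parents, so no other pair is shown.

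RefSeq on GRCm38, the mm10 assembly that the submitters' notes name, held 214 of the 216 features, all but Rps12-ps26 and Rpl23a-ps14. Of these, 205 were annotated as pseudogenes, 7 as transcribed pseudogenes and 2 as protein-coding, namely Rpl34-ps1 and Rpl31-ps12. They lay on 20 chromosomes, with 17 on X, and 9 shared the chromosome of their parent. Their spans ran from 281 to 6749 bp with a median of 547.5 bp, against a median of 3164 bp for the parents, whose spans include introns. Of the 214, 70 lay inside the span of another gene, 57 of them in a protein-coding gene and 13 in a long noncoding RNA gene.

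The features carried few counts. Their totals over the 6 libraries ran from 10 to 4778 with a median of 117, and 99 had fewer than 100 counts, 81 had at least 100 but fewer than 1000, and 36 had 1000 or more. Together they held 101018 counts, of which 31.07% lay on the 10 features with the highest mean level. Library totals were 12679621 and 20843042 counts in CPEB4 RIP, against 9018323 and 14225502 with IgG RIP and 16314360 and 12426827 with input. All 8 muscle stem cell markers checked, among them Pax7 and Myod1, were above 0 in every library, and 1 of them, Vcam1, fell over IgG RIP. Their summed level was 62430 to 68310 CPM (counts scaled to the library size) in CPEB4 RIP, 60420 to 61820 with IgG and 45770 to 47000 in input. Markers of other cells were present too: the summed level of 4 erythroid markers was 325.8 to 654 CPM in CPEB4 RIP, 84.77 to 146.6 in IgG RIP and 107.1 to 175.7 in input, and 3 of them rose over IgG RIP. The 5 fibro-adipogenic markers summed to 1512 to 1979 CPM in CPEB4 RIP, 943.6 to 1340 with IgG and 634.4 to 824.7 in input, and 1 rose. Of the 5 myofibre markers 1 rose, and none of the 4 endothelial and 4 leukocyte markers did, with 1 leukocyte marker at 0 in a library. The part of these cells in the results was not tested.

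The 2 IgG RIP libraries stood apart from each other. Their correlation over all genes tested was 0.83, against 0.968 between the 2 CPEB4 RIP libraries and 0.968 between the 2 inputs. The second IgG RIP library was the higher one for 133 of the 158 features tested, with a median log2 ratio of replicate 2 over replicate 1 of 0.76, and 62 features (39.2%) differed by more than 2-fold between them, close to the 38.8% of all 18054 genes tested. The same ratio had a median of 0.15 over the parents, none of which differed by more than 2-fold, and of 0.03 over all genes tested. Between replicates of CPEB4 RIP the features' median was 0.28 and between input replicates -0.32, with 5 features (3.16%) beyond 2-fold in CPEB4 RIP and 35 (22.2%) in input. Over all genes tested those shares were 13.5% in CPEB4 RIP and 12.1% in input. Results are therefore also given without each IgG RIP library. Each such fit leaves 1 library in a group, so its spread comes from the other groups, and the lone library is assumed to vary like them.

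**Figure D1:**
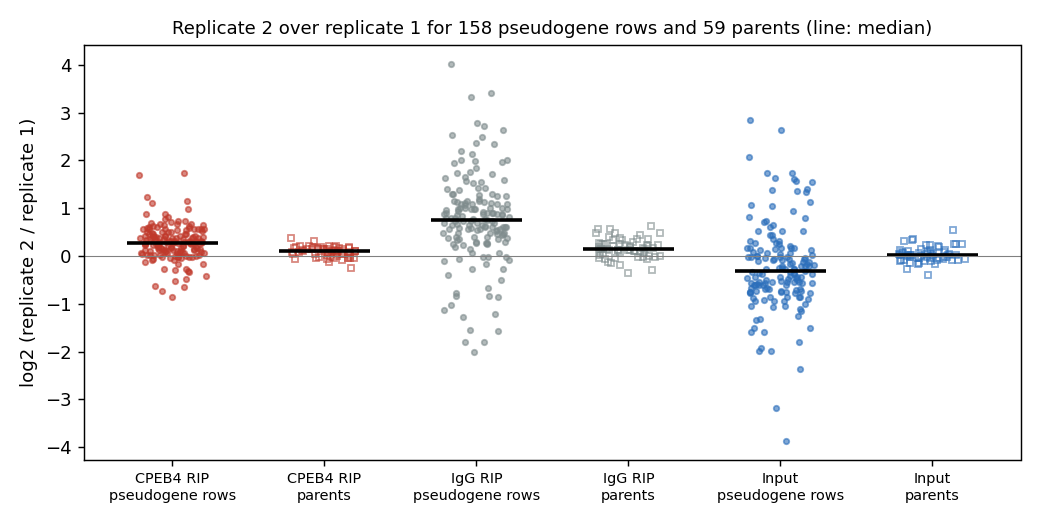
Log2 ratio of replicate 2 over replicate 1 (vertical axis, normalised counts with 0.5 added) for the 158 pseudogene features and 59 parents that were tested, in CPEB4 RIP, IgG RIP and input; each point is a gene and each line a median. The pseudogene features of IgG RIP have the median farthest from 0, at 0.76, while the parents' medians lie between 0.01 and 0.15.

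Pseudogene features took a larger share of the reads in CPEB4 RIP than in either background. They held 0.178% and 0.202% of all counts in the CPEB4 RIP libraries, against 0.0604% and 0.101% with IgG RIP and 0.0617% and 0.0519% with input. Both CPEB4 RIP libraries lay above all others, and 1 IgG RIP library lay within the input range while the other lay above it. Their 95% Wilson intervals take reads as independent and cover counting error only. In the nearest libraries they ran from 0.1759% to 0.1805% in the first CPEB4 RIP library and from 0.0995% to 0.1028% in the second IgG RIP library. The gaps between CPEB4 RIP and the backgrounds thus exceed counting error in that sense. The group means were 0.190% ± 0.0168 in CPEB4 RIP, against 0.0808% ± 0.0288 with IgG and 0.0568% ± 0.0070 for input RNA (SD over 2 libraries each). With 2 libraries against 2, a two-sided exact permutation test cannot go below p = 0.33, so no test was made on these shares.

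The parents moved in the same direction and held far more counts. They took 3.89% and 3.86% of all counts in CPEB4 RIP, against 1.95% and 1.90% with IgG RIP and 1.71% and 1.6% with input. Within families, that is among counts on features and parents together, the features held 4.38% and 4.97% in CPEB4 RIP, against 3.01% and 5.06% with IgG RIP and 3.48% and 3.14% with input. Here the groups of CPEB4 RIP and IgG RIP overlapped, because the highest and the lowest of the 6 values both came from IgG RIP. CPEB4 RIP lay above input in both libraries. Counts favour long genes, and on the length-scaled FPKM of the authors' deposited values the features' share of the family came to 14.0% for CPEB4 RIP, against 12.3% for IgG RIP and 10.3% for input.

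**Figure D2:**
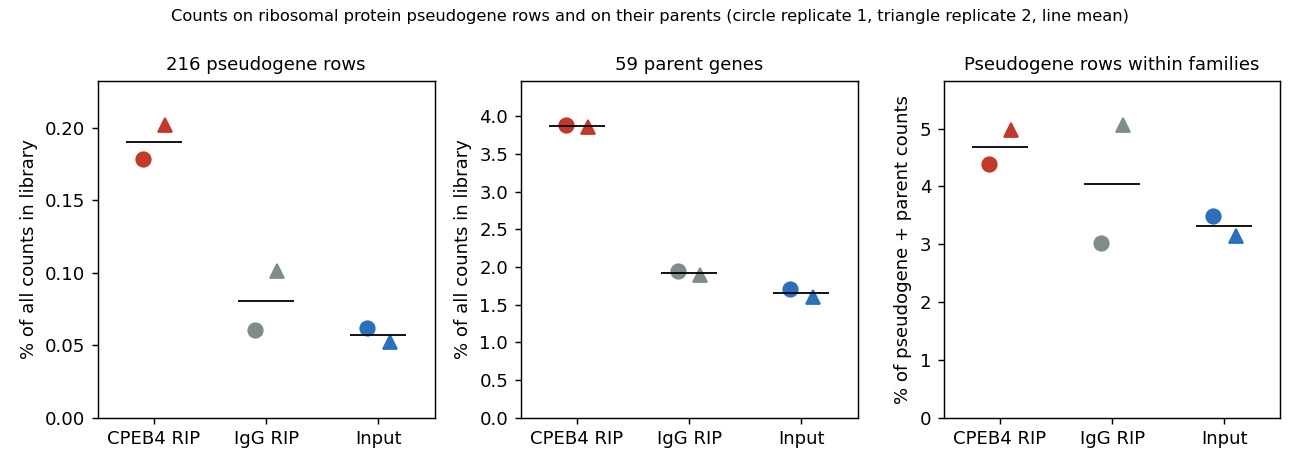
Counts on the 216 pseudogene features (left) and on their 59 parents (middle) as a percentage of all counts in each library, and on the features as a percentage of family counts (right); circles are replicate 1, triangles replicate 2 and lines means. CPEB4 RIP stands above both backgrounds in the left and middle panels, while the 2 IgG RIP values of 3.01% and 5.06% enclose the other 4 in the right panel.

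Pseudogene features outside the ribosomal protein families had shares that lay closer together. The 445 other features ending in -ps and digits with at least 10 counts held 0.151% and 0.164% of counts in CPEB4 RIP, against 0.126% and 0.131% with IgG RIP and 0.147% and 0.108% with input. Both CPEB4 RIP values lay above the others, with the first input library close below them. Of the 196 of them tested over IgG RIP, 7 rose and 2 fell, with a median log2 fold change of -0.18, and over input 8 rose and none fell, with a median of 0.19. The share that rose or fell was 4.59% over IgG RIP and 4.08% over input, against 8.21% and 12.7% of all genes tested. These other features were thus called no more often than genes in general. How they differ from the ribosomal protein features was not tested.

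Feature by feature, CPEB4 RIP lay above the backgrounds far more often than below. Of the 216 features, 153 had both CPEB4 RIP libraries above both IgG RIP libraries in normalised CPM, 4 had both below, and 59 overlapped. Among all genes with at least 10 counts, 23.6% had both above and 20.9% both below. Against input, 169 features had both CPEB4 RIP libraries above, 5 had both below and 42 overlapped, where 24.2% and 41.8% of all such genes did so. Of the parents, 58 of 59 lay above in both comparisons.

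The few features that ran the other way had low counts. Below IgG RIP in both libraries were Rpl19-ps5, Rpl35-ps1, Rps12-ps26 and Rps27a-ps1, named here after their values were seen. Rps12-ps26 had 6 and 11 counts in CPEB4 RIP, against 12 and 17 with IgG RIP and 15 and 6 with input. Among those below input were Rpl23a-ps1, Rpl26-ps6, Rpl7a-ps9 and Rps10-ps3, also named after the fact. Rps10-ps3 had 2 and 0 counts in CPEB4 RIP, against 0 and 0 with IgG RIP and 8 and 3 with input. Of the features named here, only Rpl35-ps1 and Rps12-ps26 reached the filter of the test that follows, and neither passed it.

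Fold changes were tested with edgeR's quasi-likelihood test on the counts, with Benjamini-Hochberg adjustment over 18054 genes and a threshold of 0.05. A filter on low counts, at 0.743 CPM in at least 2 libraries, left 158 of the 216 features and all 59 parents. Of the 158, 95 reached that level in all 6 libraries, while 28 reached it in both CPEB4 RIP libraries and in at most 1 other, 10 of them in no other. Counts over the 158 therefore include 28 features that entered only through the group where they were high. The 100 features that reached the level in both input libraries are given beside them.

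Over IgG RIP, 9 of the 158 features rose in CPEB4 RIP and none fell. That is 5.70%, near the 4.79% of all tested genes that rose (3.42% fell), so the count by itself does not set the features apart. Among the 100 features at the filter level in both inputs, 9 rose as well. The 158 had a median log2 fold change of 1.14, with quartiles of 0.78 and 1.54, against -0.07 over all genes tested, and 150 of the fitted values were above 0. At an unadjusted p under 0.05, 64 features (40.5%) passed, against 26.8% of all genes tested. These values include the 28 features that entered the test only through CPEB4 RIP. The 100 features at the filter level in both inputs had a median log2 fold change of 1.17, with 98 fitted values above 0. Of these 100, 56 (56%) passed at an unadjusted p under 0.05.

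The parents had a median log2 fold change of 1.01 over IgG RIP, and 53 of 59 rose. The medians of features and parents were thus close, while the median standard error (SE) of the log2 fold change was 0.63 for features and 0.15 for parents. The 21 ribosomal protein genes with no feature had a median of 0.94, and 16 of them rose. The parents that did not pass were Rpl15, Rpl23a, Rpl3, Rpl7l1, Rps10 and Rps6. The feature counts depended on single libraries: more features passed with either IgG RIP library left out, and fewer with either CPEB4 RIP library left out. For these fits the share of all genes that passed is not given, so the changes in number are no result about the features. The median fitted change was 1.75 without IgG RIP replicate 2 and 1.09 without IgG RIP replicate 1.

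Of the 9 features that rose over IgG RIP, 6 copy proteins of the small subunit and 3 copy proteins of the large subunit. Among the 158 tested, 62 copy small-subunit and 96 large-subunit genes by symbol, and the difference was not tested. The pair from Rpsa, a small-subunit protein also known as the laminin receptor, had the smallest adjusted p. Rpsa-ps10 had 30.6 and 29.5 CPM in CPEB4 RIP, against 7.78 and 11.4 CPM in IgG RIP and 5.60 and 4.61 CPM in input. Rpsa-ps9 had 37.2 and 36.7 CPM in CPEB4 RIP, against 8.32 and 14.9 CPM in IgG RIP and 4.51 and 5.08 CPM in input. For both, each CPEB4 RIP library was above every other library, and input was the lowest group. The log2 fold changes over IgG RIP were 1.64 (SE 0.29, edgeR adjusted p = 0.0201) for Rpsa-ps10 and 1.66 (SE 0.32, edgeR adjusted p = 0.0245) for Rpsa-ps9, beside 1.29 for Rpsa itself.

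Rps12-ps9, a copy of a small-subunit protein gene, had the widest change of the 9. It had 33.4 and 39.8 CPM in CPEB4 RIP, against 3.41 and 9.29 CPM in IgG RIP and 3.04 and 5.31 CPM in input. Its log2 fold change over IgG RIP was 2.51 (SE 0.49, edgeR adjusted p = 0.0250), and that of Rps12 was 2.52, the highest among the parents. Rps16-ps2 was the most abundant of the 9, with 94.0 and 109 CPM in CPEB4 RIP, against 16.5 and 39.7 CPM in IgG RIP and 14.6 and 19.8 CPM in input. Its log2 fold change over IgG RIP was 1.84 (SE 0.39, edgeR adjusted p = 0.0318), and that of Rps16 was 1.48. In both families the parent and the copy had changes within 1 SE of the copy's value.

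Rps15a-ps6, annotated as a transcribed pseudogene, had 23.6 and 30.2 CPM in CPEB4 RIP, against 4.80 and 9.36 CPM in IgG RIP and 2.28 and 3.75 CPM in input, and a log2 fold change over IgG RIP of 1.92 (edgeR adjusted p = 0.0352). Its CPEB4 RIP libraries lay above the other 4, and its parent Rps15a had a log2 fold change over IgG RIP of 1.19.

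The large-subunit copies that rose were Rpl34-ps1, Rpl19-ps7 and Rpl31-ps8. Rpl34-ps1, which RefSeq annotates as protein-coding, had 32.6 and 34.7 CPM in CPEB4 RIP, against 10.3 and 15.3 CPM in IgG RIP and 9.03 and 8.43 CPM in input. Rpl19-ps7 had 30.0 and 32.7 CPM in CPEB4 RIP, against 9.70 and 14.6 CPM in IgG RIP and 7.51 and 7.34 CPM in input. Rpl31-ps8 had 36.2 and 44.9 CPM in CPEB4 RIP, against 7.89 and 17.1 CPM in IgG RIP and 6.09 and 6.79 CPM in input. In all 3, CPEB4 RIP did not overlap either background. Their log2 fold changes over IgG RIP were 1.39 for Rpl34-ps1, 1.36 for Rpl19-ps7 and 1.69 for Rpl31-ps8, and their edgeR adjusted p-values were 0.0261, 0.0312 and 0.0371 in that order. Rpl31-ps12, whose start is printed above, had 20 and 34 counts in CPEB4 RIP, against 7 and 10 with IgG RIP and 12 and 9 with input, and its change over IgG RIP did not pass (log2 fold change 1.19, edgeR adjusted p = 0.359).

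**Figure D3:**
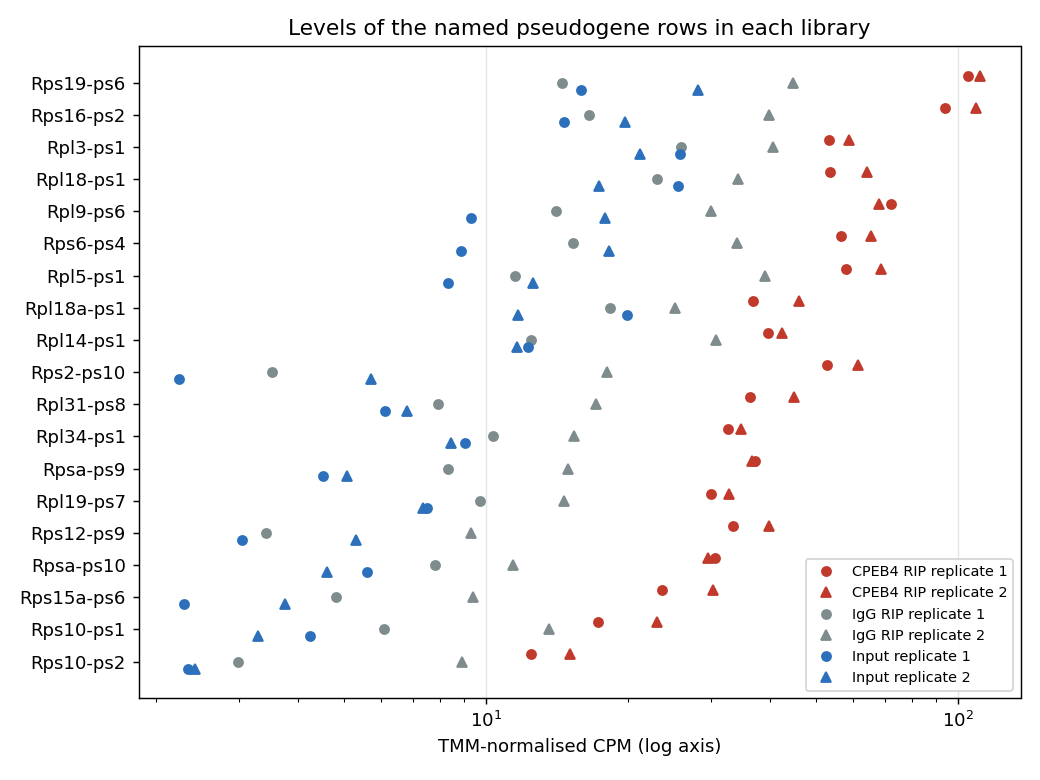
Normalised CPM (log axis) in each library for 19 pseudogene features, taken from the 10 with the highest mean CPM, those that rose over IgG RIP, and the 2 that differed from their parent. In all 19 both CPEB4 RIP libraries lie to the right of the other 4, and IgG RIP replicate 2 lies to the right of replicate 1.

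The most abundant features did not all pass over IgG RIP. Rps19-ps6, a copy of a small-subunit protein gene whose human form is mutated in Diamond-Blackfan anaemia, had the highest mean level. It had 105 and 112 CPM in CPEB4 RIP, against 14.5 and 44.8 CPM in IgG RIP and 15.9 and 28.2 CPM in input. CPEB4 RIP lay above both backgrounds, and the IgG RIP libraries lay on both sides of the input range. The log2 fold change over IgG RIP was 1.86 (SE 0.49, edgeR adjusted p = 0.0596). On the length-scaled FPKM of the authors' deposited table, Rps19-ps6 was listed at 175 and 181 in CPEB4 RIP, against 21.8 and 71.0 with IgG RIP and 26.3 and 45.7 with input. Rps19 was listed there at 236 and 224 in CPEB4 RIP, against 79.8 and 83.0 with IgG RIP and 80.7 and 81.2 with input, so the copy lay below its parent in all 6 libraries.

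Rps2-ps10, a copy of another small-subunit gene, had the widest split between the IgG RIP libraries among the 10 most abundant features. It had 52.9 and 61.3 CPM in CPEB4 RIP, against 3.52 and 18.1 CPM in IgG RIP and 2.23 and 5.70 CPM in input. Its log2 fold change over IgG RIP was 2.38 (SE 0.68, edgeR adjusted p = 0.0744). Rpl5-ps1, a copy of the gene for a large-subunit protein that also binds MDM2, had 58.1 and 68.7 CPM in CPEB4 RIP, against 11.5 and 39.0 CPM in IgG RIP and 8.32 and 12.6 CPM in input (log2 fold change over IgG RIP 1.32, edgeR adjusted p = 0.144). Rpl3-ps1, a copy of the gene for a protein near the catalytic centre of the large subunit, had 53.4 and 58.8 CPM in CPEB4 RIP, against 25.9 and 40.5 CPM in IgG RIP and 25.7 and 21.2 CPM in input. Its log2 fold change over IgG RIP was 0.75 (edgeR adjusted p = 0.114), and that of Rpl3 was 0.46 (edgeR adjusted p = 0.0638). Of the 10 most abundant, Rps16-ps2 alone passed over IgG RIP.

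Over input the features separated more clearly. Of the 158 features, 53 rose in CPEB4 RIP and none fell, which is 33.5%, against 8% of all tested genes that rose and 4.7% that fell. Among the 100 features at the filter level in both inputs, 51 rose and none fell. The median log2 fold change was 1.73 over the 158 and 1.68 over the 100, against -0.06 over all genes tested. The parents had a median of 1.498, with 57 of 59 past the test. The comparisons over IgG RIP and over input share the CPEB4 RIP libraries, so they are not independent of each other.

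The 53 came from 38 parents, with 4 from Rpsa and 3 from Rps15a. Of the 53, 27 copy large-subunit genes, as do 96 of the 158 tested and 135 of all 216 features by symbol. Their log2 fold changes over input ran from 1.25 for Rpl3-ps1 to 3.87 for Rps2-ps10, whose value had an SE of 0.74 (edgeR adjusted p = 0.0162). All 9 features that rose over IgG RIP were among them, with the smallest adjusted p for Rpsa-ps9 (log2 fold change over input 2.95, edgeR adjusted p = 0.00326). All of the 10 most abundant features also rose over input. The call depended on which libraries entered: more features passed with either IgG RIP library left out. Fewer passed with a CPEB4 RIP or an input library left out. Here too the share of all genes in those fits is not given.

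Several features with few reads in input had wide changes. Rpl17-ps8, annotated as a transcribed pseudogene of a large-subunit gene, had 55 and 128 counts in CPEB4 RIP, against 7 and 41 with IgG RIP and 6 and 7 with input. Its log2 fold change over input was 3.69 (SE 0.84, edgeR adjusted p = 0.0288). Rpl17-ps3, from the same parent, had 269 and 468 counts in CPEB4 RIP, against 14 and 135 with IgG RIP and 19 and 40 with input, and a log2 fold change over input of 3.52 (SE 0.86, edgeR adjusted p = 0.0360). Rpl17 itself had a log2 fold change over input of 1.59. The difference from Rpl17 did not pass for either copy (edgeR adjusted p = 0.122 for Rpl17-ps8 and 0.155 for Rpl17-ps3).

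Of the 9 features that RefSeq annotates as transcribed or protein-coding, all were tested and 2, Rps15a-ps6 and Rpl34-ps1, rose over IgG RIP. Over input 5 rose, namely these 2 with Rpl14-ps1, Rpl17-ps8 and Rps6-ps4. Of all 158 tested features 5.7% rose over IgG RIP and 33.5% over input, against 4.79% and 8% of all genes tested. Whether the 9 differ from the other features was not tested. Rps6-ps4 copies a small-subunit protein known as a target of S6 kinase. Rps6-ps4 had 56.6 and 65.4 CPM in CPEB4 RIP, against 15.2 and 34.0 CPM in IgG RIP and 8.86 and 18.2 CPM in input, with no overlap between CPEB4 RIP and the others. Rps15a-ps4, also annotated as transcribed, had the smallest change over input of the 9, at a log2 fold change of 0.46 (edgeR adjusted p = 0.750).

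Between IgG RIP and input no feature passed, as no gene of the 18054 did (0%). At an unadjusted p under 0.05, 20 of the 158 features (12.7%) passed with edgeR, against 14.1% of all genes tested. Among the 100 features at the filter level in both inputs, 19 (19%) did so, a larger share than that of all genes. The DESeq2 Wald test called 2 features. The features' median log2 fold change was 0.66 and the parents' 0.42, against 0.05 over all genes tested. Of the 216 features, 71 had both IgG RIP libraries above both inputs, 14 had both below and 131 overlapped, where 15.5% and 25.1% of all genes with at least 10 counts lay above and below. With either IgG RIP library left out some features passed, and the share of all genes that did so is not given.

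Whether a feature moved by another amount than its parent was tested in the same edgeR fit with the parent's counts in place of the library size. The p-values were adjusted over all 18054 genes of that fit, nearly all of them set against library size. Adjusted p-values of the features thus depend on those genes, and no adjustment over the 158 features alone was made. Over IgG RIP no feature of the 158 differed from its parent at the threshold (2 at an unadjusted p under 0.05), while 4.74% of all genes in that fit rose, nearly all of them genes that have no parent here and are set against library size, so that share is no baseline for a difference from a parent. The median difference, feature minus parent, was 0.04 on the log2 scale with quartiles of -0.24 and 0.39. Over input the median difference was 0.20 with quartiles of -0.13 and 0.78. At the threshold 2 features were higher than their parent and none lower (18 at an unadjusted p under 0.05), while 7.65% of all genes in that fit rose, with the same limit. Both medians include the 28 features that entered the test only through CPEB4 RIP. They are not given for the 100 features at the filter level in both inputs. The calls against the parent depended on the IgG RIP libraries that entered. Over IgG RIP, most features called without replicate 2 were higher than their parent, and the few called without replicate 1 were lower. Over input most of those called were higher in both fits. Each of these fits holds a single IgG RIP library, and the share of all genes that passed is not given. These calls are therefore no result about the features.

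The log2 fold changes of features and parents were positively correlated. Over 158 features the Spearman correlation of feature and parent log2 fold change was 0.489 over IgG RIP, 0.376 over input and 0.248 for IgG RIP over input. These describe features that share libraries and, within families, share a parent, and they include the 28 that entered the test only through CPEB4 RIP. The number of features per parent ran from 1 to 16, with 16 for Rpl31 and 10 each for Rpl19, Rpl21, Rps12, Rps19 and Rpsa.

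**Figure D4:**
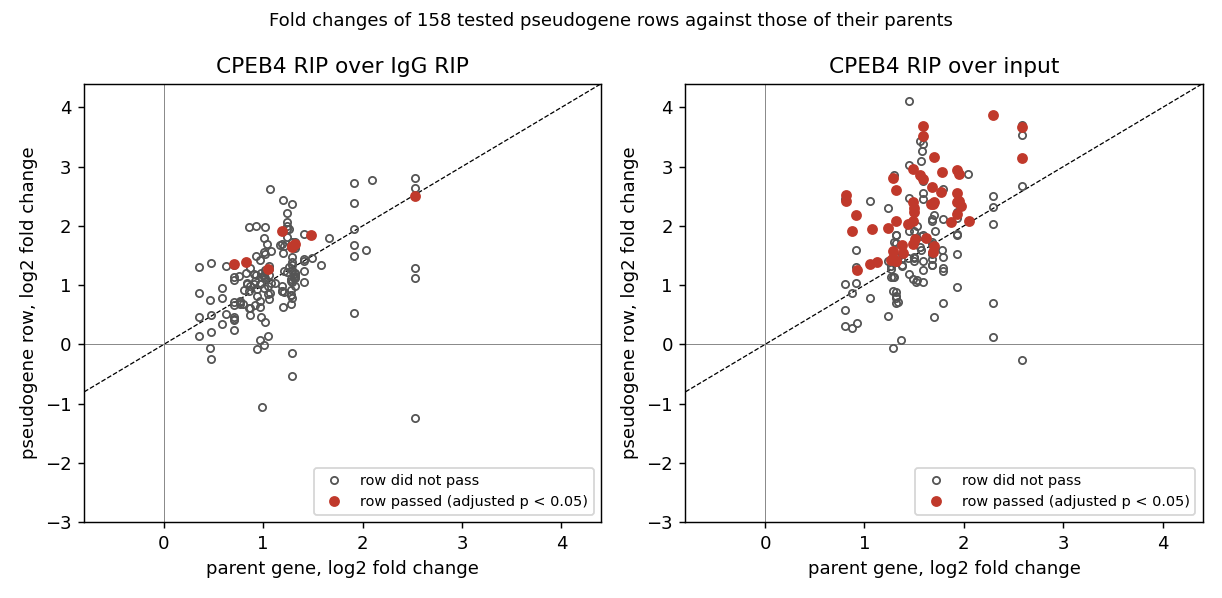
Log2 fold change of each of the 158 tested pseudogene features (vertical axis) against that of its parent (horizontal axis), for CPEB4 RIP over IgG RIP (left) and over input (right); filled points passed the edgeR test at 0.05 and the dashed line marks equal change. Parents span a narrow range while features scatter on both sides of the line, with 9 filled points on the left and 53 on the right.

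The 2 features that passed as higher than their parent over input, with p-values adjusted over all genes of that fit, were Rps10-ps1 and Rps10-ps2. Both are copies of a small-subunit gene. Rps10-ps1 had 17.2 and 23.0 CPM in CPEB4 RIP, against 6.08 and 13.6 CPM in IgG RIP and 4.24 and 3.28 CPM in input. Rps10-ps2 had 12.4 and 15.03 CPM in CPEB4 RIP, against 2.98 and 8.91 CPM in IgG RIP and 2.34 and 2.42 CPM in input. The Rps10 gene itself had 5.22 and 4.78 CPM in CPEB4 RIP, against 2.13 and 3.17 CPM in IgG RIP and 2.94 and 2.73 CPM in input. The differences from Rps10 over input were 1.62 on the log2 scale (SE 0.36, edgeR adjusted p = 0.0278) for Rps10-ps1 and 1.72 (SE 0.44, edgeR adjusted p = 0.0444) for Rps10-ps2. That fit takes the counts of Rps10 as fixed, so their counting error is not modelled apart. The log2 fold change of Rps10 itself over input had an SE of 0.48, larger than both. The 2 calls may thus look more certain than they are. They share a parent whose 305 counts over 6 libraries are few for a ribosomal protein gene, so they are not independent of each other, and neither call remained when a CPEB4 RIP or an input library was left out.

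Rps10 was also the family with the largest share of counts on its copies. In the FPKM of the authors' deposited table Rps10 was listed at 1.65 and 1.47 in CPEB4 RIP, against 0.608 and 0.953 with IgG RIP and 0.920 and 0.841 with input, while Rps10-ps1 was listed at 25.4 and 33.02 in CPEB4 RIP, against 8.09 and 19.1 with IgG RIP and 6.203 and 4.71 with input. Per length the copy thus lay above its parent in every library. By counts the copies of Rps10 held 85.1% and 88.8% of the family in CPEB4 RIP, against 81.0% and 87.6% with IgG RIP and 70.5% and 68.5% with input. Both CPEB4 RIP values lay above both inputs, and the IgG RIP values spanned a range that overlaps CPEB4 RIP. The next families by share over all libraries were Rpl13a at 29.0%, with 1 feature, Rpl36a at 16.5% with 3, Rps12 at 14.4% with 10, and Rpl31 at 13.0% with 16. The lowest was Rpl7l1, a paralog of Rpl7 and no ribosomal protein gene of the core set, at 0.0422%.

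Adding the copies to their parent moved most parents little, with Rps10 as the exception. With features and parent summed, the log2 fold change over IgG RIP moved by between -0.07 for Rpl13a and 0.17 for Rps10. Over input, Rps10 had a log2 fold change of 0.82 alone and 2.07 when summed with its copies. The number of parents past the test stayed within 1.5 times in all 3 comparisons.

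Features inside other genes were set beside those hosts, because without strand the reads of both cannot be told apart. For 41 pairs both feature and host were tested. The pairs were not limited to features at the filter level in both inputs. The features had a median log2 fold change of 1.16 over IgG RIP and 2.08 over input, against -0.12 and -0.21 for the hosts, and the feature was the higher of the pair in 37 pairs over IgG RIP and 40 over input. Among the hosts, 1 rose and 3 fell in each comparison. The hosts that rose or fell in both were Ilrun, which rose, and Nup93 and Lars, which fell. The 101 tested features outside any gene had medians of 1.16 and 1.84 over IgG RIP and input.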

How the data were processed

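RNA was measured in 6 SMART-seq2 libraries of muscle stem cells. The submitters' processing notes name HISAT2, featureCounts and the mm10 build; for versions, annotation, strand and reads with several matches, these sources give nothing. The deposited count table holds raw read counts per gene, and a second deposited table holds FPKM, scaled by the authors for length and depth.

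The main analysis used edgeR 4.0.16 under R 4.3.3: filterByExpr (minimum count 10, minimum total 15), TMM scaling, and a quasi-likelihood fit of all 6 libraries with group as the only term and 3 residual degrees of freedom. Tests were two-sided with Benjamini-Hochberg adjustment. An SE is the absolute log2 fold change over the square root of F. CPM are TMM-scaled. In the fit against parents, a feature's offset was the log of its parent's counts plus 0.5, taken as fixed and without an error of its own. Named features were those past a test, the 10 with the highest mean CPM and those at the limit of 10 counts; not all of them are printed, and some are not reported here. The features, lists and tests were chosen with earlier results of these data known. The fits were run on simulated data, with the low-count filter not applied to them and with parents unchanged. The fit against parents was thus not tried where parents rise. Alternatives used DESeq2 1.42.0, limma 3.58.1 on log2(FPKM + 1) or log2(FPKM + 0.1), other scalings and filters, and each library left out; the features at the filter level in both inputs were added after the data were seen. PCR reads carry no molecular identifiers, so intervals cover counting error only.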

Additional observations from a re-analysis of the deposited data

How the results depend on the processing

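Directions held under every alternative for the 19 plotted features and their parents in the comparisons of CPEB4 RIP with each background; how many features passed depended strongly on the setting. Features past the test over IgG RIP (9) were 36 with the DESeq2 Wald test, 28 and 44 with limma on FPKM with 0.1 and 1 added, 16 with a mean count of at least 20, 16 without genes of the mitochondrial genome, 39 with no filter, and 0 to 97 with 1 library left out. Over input (53) they were 85 and 99 with limma on FPKM with 0.1 and 1 added, 119 with only the 4 libraries compared, and 1 to 124 with 1 left out. Between IgG RIP and input (0) they were 2 with DESeq2, 5 with no filter and 0 to 48 with 1 left out. Parents past the test were 0 to 58 over IgG RIP and 26 to 57 over input with 1 library left out; between IgG RIP and input they were 24 with DESeq2, 5 with no filter and 0 to 21 with 1 left out. Features that differed from their parent over IgG RIP (0) were 2 with no filter and 0 to 32 with 1 left out; over input (2) they were 5 with a mean count of at least 20, 15 with no filter, 33 with only the 4 libraries compared and 0 to 40 with 1 left out; between IgG RIP and input (0) they were 1 with no filter and 0 to 25 with 1 left out. The features' median log2 fold change over IgG RIP was 0.98 to 1.75 with 1 left out. On FPKM the features' share of all values was 0.916% with CPEB4 RIP, 0.453% with IgG RIP and 0.327% for input, and their share of the family 14.0%, 12.3% and 10.3%. With the replicate block 20 features passed over IgG RIP and 8 differed from their parent over input. Over all genes, same-numbered libraries deviated together at r = 0.164 for CPEB4 RIP and IgG RIP, 0.006 for CPEB4 RIP and input, and 0.064 for IgG RIP and input. The numbers were therefore not taken as pairs. Over the features alone these values were -0.282, -0.305 and 0.337 in the same order. The causes of the changes between settings were not tested, apart from the fewer libraries and the other genes tested that an alternative itself brings. For the alternatives the share of all genes that passed is not given, so these counts show how the calls depend on the setting and are no result about the features. The median total of 117 counts limits what a single feature can show.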
